A study of Mus musculus with 12 samples.

Results

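SCC7 cells kept in medium from tumour-conditioned macrophages were compared with SCC7 cells kept in medium from macrophages given interleukin-4 (IL-4). SCC7 is an established mouse cell line that the labels describe as squamous carcinoma, of wild-type genotype. The comparison rests on 6 of the 12 RNA-seq libraries in the series, 3 for each medium, and on the 14509 of 55487 genes in the count table that passed a filter on low counts, chosen by no other property. Mouse bone marrow-derived macrophages (BMDM) had been treated for 24 h, their conditioned medium (CM) was moved onto SCC7 cells for a further 24 h, and RNA of the SCC7 cells was sequenced. For M2 CM the macrophages had received 20 ng/ml IL-4, the cytokine that drives the state called M2 or alternative activation. For TAM CM, named after tumour-associated macrophages, they had been kept in 75% medium from SCC7 cells. The other 6 libraries are SCC7 cells in CM from macrophages in control DMEM (M0 CM) and from macrophages given 20 ng/ml of the cytokine that the design text writes as INF-γ (M1 CM). These 6 shared the model fit, and some of their levels are given beside those of the compared libraries. No library of SCC7 cells given tumour-cell medium that had never met macrophages is among the 12, nor one given IL-4 alone. Products of the macrophages, medium carried over from SCC7 cells and IL-4 carried over from the treatment therefore cannot be told apart.

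Tumour cells read amino acid supply, haem and protein folding through the integrated stress response, in which sensor kinases slow translation and favour the transcription factor ATF4. With partners such as CHOP (gene Ddit3), ATF4 switches on amino acid transporters, enzymes that make amino acids, tRNA synthetases and secreted stress hormones. Sterol and fatty acid synthesis are set by the SREBP factors, glutathione and haem defence by NRF2, and the reply to IL-4 by its receptor chain Il4ra and STAT6. Macrophages that meet tumour cells are known to alter tumour growth, matrix and drug response through what they secrete.

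The sequences below were printed because the integrated stress response list, which holds ATF4 and its targets, had the highest median fold change of the 39 lists described here. They show the CCAAT-enhancer binding protein-ATF response element (CARE), searched as TGATGNAA on both strands from 250 bases before to 50 after the annotated start, with the match in capitals. Promoters are RefSeq's, build GRCm38.p6, and each window is written 5′ to 3′ on the strand of its gene and ends before the start site. Fgf21 lies on the minus strand (chr7:45615582-45615669), Chac1 on the plus strand (chr2:119351009-119351096), Atf3 on the minus strand (chr1:191183396-191183483), Nupr1 on the minus strand (chr7:126625533-126625620) and Slc7a11 on the minus strand (chr3:50443632-50443719). Pycr1 is on the minus strand (chr11:120643804-120643891), as are Asns (chr6:7693210-7693272), Got1 (chr19:43524660-43524747), Tars (chr15:11399659-11399713) and Slc7a7 (chr14:54418038-54418125).
Fgf21: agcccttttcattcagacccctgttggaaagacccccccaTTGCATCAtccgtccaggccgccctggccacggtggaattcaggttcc
Chac1: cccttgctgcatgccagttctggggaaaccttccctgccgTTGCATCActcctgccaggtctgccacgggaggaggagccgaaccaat
Atf3: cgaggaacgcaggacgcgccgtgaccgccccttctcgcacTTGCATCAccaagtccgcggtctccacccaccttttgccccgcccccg
Nupr1: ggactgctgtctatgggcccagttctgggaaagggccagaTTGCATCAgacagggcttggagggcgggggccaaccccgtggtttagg
Slc7a11: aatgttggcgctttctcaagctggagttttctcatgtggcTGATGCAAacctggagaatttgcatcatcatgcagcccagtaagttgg
Pycr1: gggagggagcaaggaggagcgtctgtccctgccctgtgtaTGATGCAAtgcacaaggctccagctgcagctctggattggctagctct
Asns: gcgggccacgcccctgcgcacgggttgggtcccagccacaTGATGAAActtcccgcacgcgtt
Got1: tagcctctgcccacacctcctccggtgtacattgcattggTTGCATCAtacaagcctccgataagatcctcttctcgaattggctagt
Tars: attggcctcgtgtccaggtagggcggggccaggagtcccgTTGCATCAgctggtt
Slc7a7: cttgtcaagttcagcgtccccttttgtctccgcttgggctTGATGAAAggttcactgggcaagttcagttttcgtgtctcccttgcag
The Slc7a11 window holds a second match, on the other strand, left in lower case. A match was found in the promoters of 16 of the 57 genes with a RefSeq promoter, out of 78 tested genes in the 4 lists below (28.1%). Over all 9976 tested genes with a promoter, 277 held one (2.78%), and over the whole set of 27025 genes with a promoter given, 1219 did (4.51%). Restricting the window to the 250 bases before the start left 12 of 57 (21.1%) against 2.45% of tested genes. By list, the letters were present for 5 of 17 stress response genes, 3 of 12 amino acid transporters, 3 of 16 amino acid enzymes and 5 of 12 cytosolic tRNA synthetases. These lists hold known ATF4 targets and groups of genes that ATF4 switches on. A share above that of all genes was thus largely built into the choice of lists, and is no separate evidence from these data. Of the 16 genes with a match, 15 rose and 1 fell: Slc7a7, an exporter of cationic amino acids (log2 fold change -0.52 ± 0.16, SE), which has 2 matches, before 2 of its 5 annotated starts, the first of them shown. The lists themselves rose in 19 of 21, 11 of 17, 17 of 20 and 14 of 20 tested genes, in the same order, so most matched genes would rise with their lists. The direction of matched genes outside the lists was not counted. The match is a description of letters, and binding was not measured.

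The 6 libraries held between 18996937 and 22585876 counts, so that 1 CPM (the usual scaling of read counts to library size, here with sizes scaled by TMM) stood for about 20.4 counts. A gene was called when edgeR's quasi-likelihood test gave a Benjamini-Hochberg adjusted p under 0.05, and "rose" and "fell" below mean higher and lower in TAM CM than in M2 CM among called genes. Changes are log2 fold changes ± SE unless a fold is named, and levels with ± are mean ± SD in CPM over the 3 libraries of a medium. The first principal component separated the media with 84.6% of the variance of the 6 libraries. Libraries of the same medium correlated at 0.993 to 0.994 (Pearson r over genes, log2 CPM) yet differed by more than counting noise, so none was counted as a duplicate. The labels do not say whether the 3 libraries of a medium came from separate cultures, so that the spread behind each p-value may be technical. Mitochondrial transcripts took 1.71 to 1.78% of counts in M2 CM and 1.64 to 1.74% in TAM CM. For replicate 3 of M2 CM the label for cell type reads melanoma, although its cell line label is SCC7. Of 8 melanocyte markers, Dct, Sox10 and Slc45a2 were at 0 in all 6 libraries and 7 were under 0.5 CPM in both media, and the summed level was 6.80 CPM in that library against 7.34 and 5.57 CPM in the other M2 CM libraries. Without it, 4832 genes were higher and 4738 lower, and of the genes named below Abca1, Bcl6 and Tapbpl lost their calls. Most squamous markers were at or near 0: Krt6a, Epcam, Dsg3, Ivl and Perp were at 0 in all 6 libraries and 9 of 15 stayed under 0.5 CPM in both media. Their summed level was 22.4 ± 1.45 CPM in M2 CM and 6.73 ± 0.38 CPM in TAM CM. Sprr1a, a precursor of the cornified envelope, made up most of the sum in M2 CM (17.7 ± 1.53 CPM) but not in TAM CM (2.62 ± 0.209 CPM). The label's squamous identity was thus not seen in most of these markers.

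Over the 14509 genes, 9919 were called (68.4%), of which 4974 rose (34.3% of the tested genes) and 4945 fell (34.1%). Rises of at least 2-fold numbered 1302 (8.97%) and falls of that size 1216 (8.38%), and 410 (2.83%) and 314 (2.16%) passed 4-fold. The 3 libraries of one medium all lay above the 3 of the other for 10351 genes (71.3%), in 35.9% of all genes with TAM CM above and in 35.5% with TAM CM below. The median log2 fold change over all tested genes was 0.005. These shares are the background for every list below. The plot of called members by list shows them as dashed lines.

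**Figure D1:**
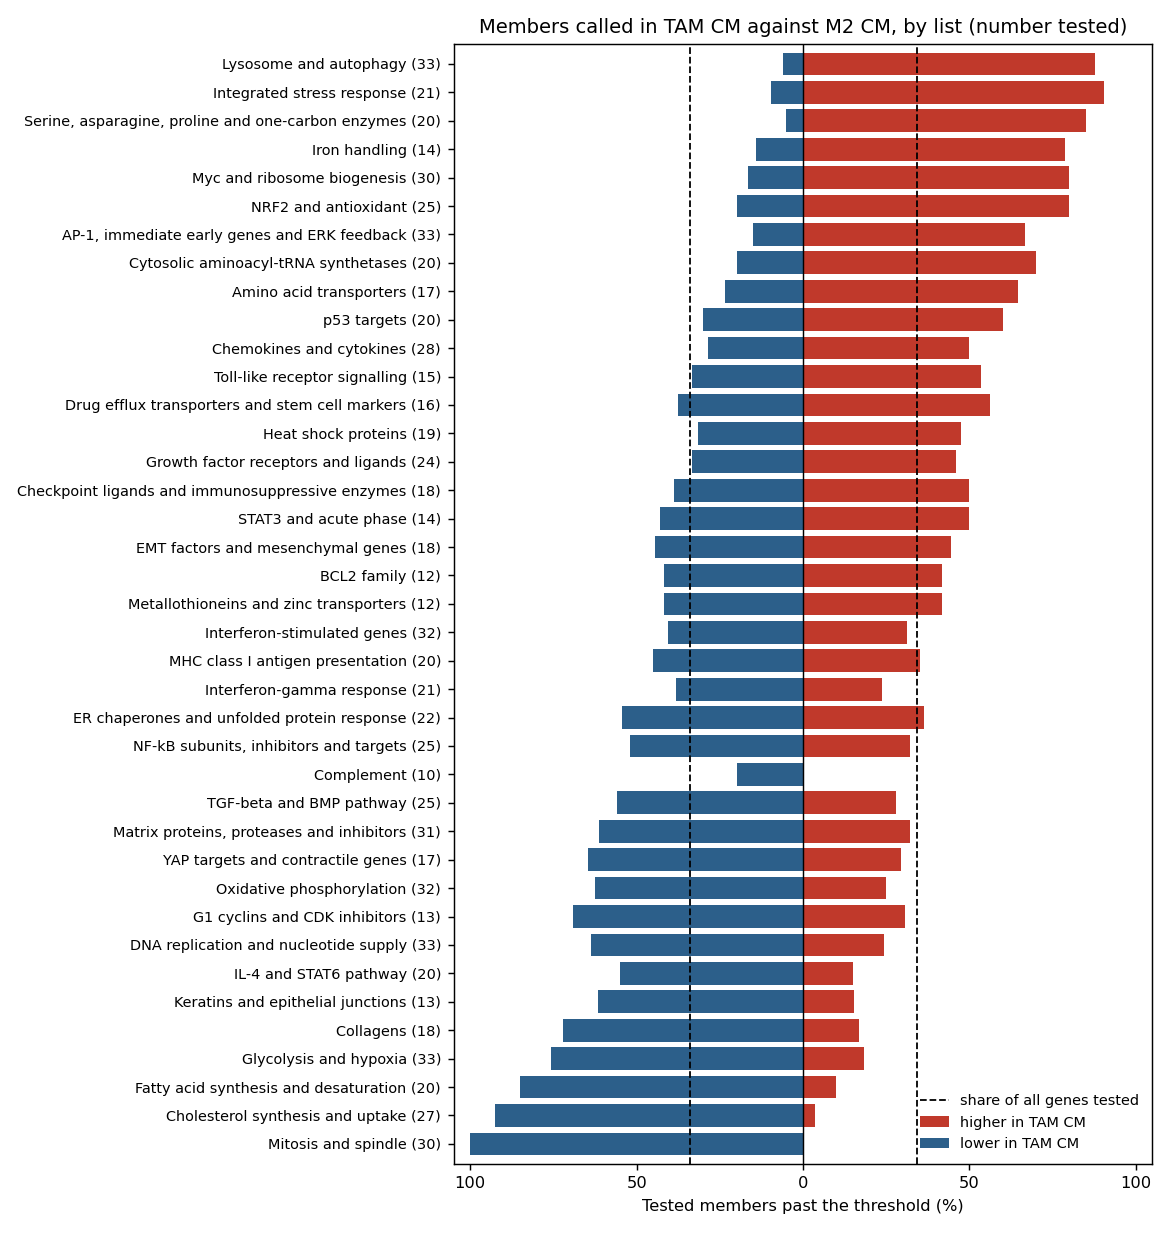
Share of the tested members of 39 gene lists that passed the threshold in TAM CM against M2 CM, as a percentage on the x axis, with members that rose to the right and members that fell to the left, and the number tested in brackets. Dashed lines mark the shares of all tested genes, 34.3% higher and 34.1% lower. Stress response, lysosome and amino acid enzyme lists extend to the right, and mitosis and sterol lists to the left.

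The integrated stress response list was nearly all higher in TAM CM. Of 21 tested genes, 19 rose and 2 fell, beside 34.3% and 34.1% of all genes tested. Rises of at least 2-fold numbered 18, beside 8.97% of all genes, and the median log2 fold change was 2.94 against 0.005. Its secreted hormones had the largest folds. Fgf21, a hormone that adjusts whole-body metabolism under nutrient stress, was at 0.0464, 0.351 and 0.095 CPM in the 3 M2 CM libraries and at 79.9, 78.5 and 76.6 CPM in the 3 TAM CM libraries. All TAM CM values lay far above a level that in M2 CM rested on 10 counts in all, and the log2 fold change was 8.88 ± 0.16 (SE; adjusted p = 6.63e-42). Gdf15, a stress hormone that reduces appetite, was at 0.418, 1.254 and 0.903 CPM in M2 CM and at 37.3, 36.6 and 38.9 CPM in TAM CM, again without overlap (5.46 ± 0.17). Adm2, a vasodilator peptide of the calcitonin family, had 2 counts over the M2 CM libraries and 215 over the TAM CM libraries, a ratio of 112 with a 95% interval of 30.6 to 929 from counting alone. Stc2, a secreted glycoprotein of the stanniocalcin family, rose from 3.24 ± 0.156 to 50.8 ± 1.57 CPM (mean ± SD, n = 3). Gfral, which encodes the receptor for GDF15 and is known from the hindbrain, had no count in M2 CM and 414 in TAM CM, at least 143.6-fold higher with 3 counts over the group as the floor. Its levels in TAM CM, 7.04, 7.18 and 6.42 CPM, were close to each other.

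Among the transcription factors and regulators, Atf4 itself was at 490.5, 483 and 478 CPM in M2 CM and 1336, 1306 and 1298 CPM in TAM CM, a log2 rise of 1.44 ± 0.037. Atf3, an early stress factor, showed a steeper rise, from 2.19 ± 0.618 to 66.9 ± 0.791 CPM (4.94 ± 0.11). Ddit3 was at 8.82, 10.03 and 10.6 CPM in M2 CM and at 77.1, 75.1 and 73.8 CPM in TAM CM. Every TAM CM value was above every M2 CM value for these 3 factors. Trib3, a pseudokinase that restrains ATF4 and AKT, rose by 3.94 ± 0.063, and Ppp1r15a, the phosphatase subunit that ends the response by dephosphorylating eIF2, by 4.15 ± 0.062. Chac1, which degrades glutathione, was at 17.0, 15.7 and 16.3 CPM in M2 CM and at 524, 506 and 497 CPM in TAM CM, a fold of 31.2. Nupr1, a small stress-induced chromatin protein, rose from 24.4 ± 2.12 to 339 ± 13.3 CPM. The 3 brakes on growth signalling in the list also rose: Sesn2 by 2.36 ± 0.045, Ddit4, an inhibitor of mTORC1, by 2.06 ± 0.051, and Eif4ebp1, which holds back cap-dependent translation, by 1.71 ± 0.038. The 2 members that fell encode sensor kinases of the response, Eif2ak3 (PERK) at -0.49 ± 0.069 and Eif2ak4 (GCN2) at -0.44 ± 0.053.

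**Figure D2:**
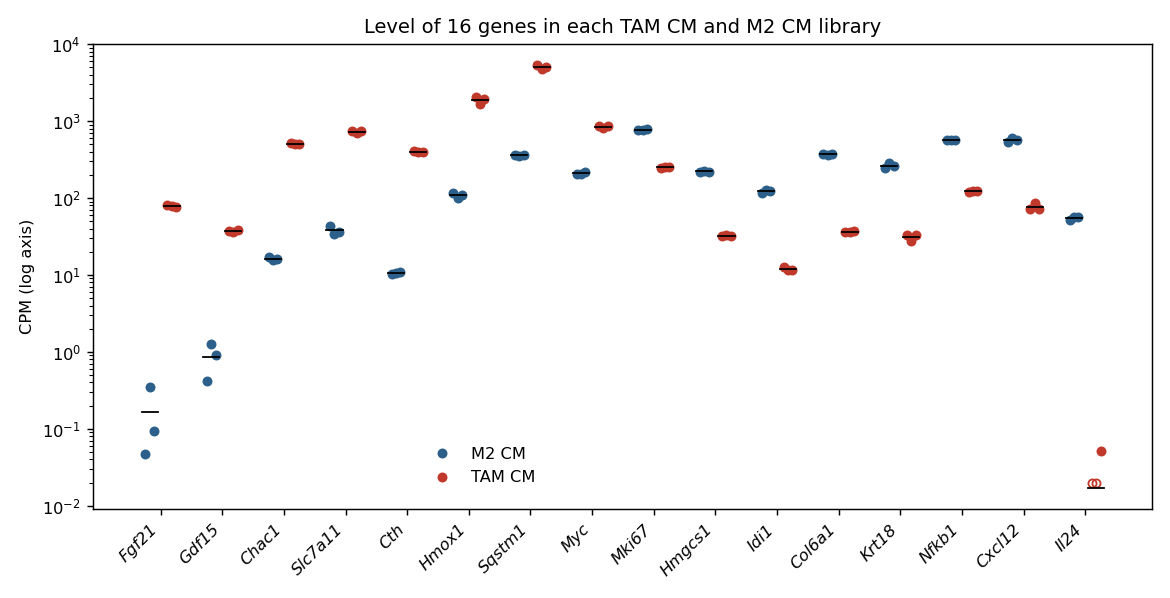
CPM on a log axis of 16 genes in each of the 3 M2 CM (blue) and 3 TAM CM (red) libraries, with a short bar at the group mean and an open circle drawn at 0.02 CPM for a library with no count. The genes were chosen with results of these data known. The 2 groups do not overlap for any of them, as for 71.3% of all genes tested, from Fgf21 at the left, near 0 in M2 CM, to Il24 at the right, near 0 in TAM CM.

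Amino acid transporters rose in 11 of 17 tested cases and fell in 4 (median 1.20). Slc7a11, the cystine importer that feeds glutathione synthesis, was at 43.2, 34.2 and 36.6 CPM in M2 CM and 744, 692 and 739.7 CPM in TAM CM. The TAM CM libraries stood 19.05-fold higher (4.25 ± 0.12; adjusted p = 7.64e-10). Slc3a2, the chain shared by the cystine and large neutral amino acid exchangers, rose by 2.67 ± 0.037, and its partner Slc7a5, the leucine transporter LAT1, by 2.24 ± 0.045. The glycine importer Slc6a9 went from 15.9 ± 0.486 to 170.1 ± 2 CPM, and the neutral amino acid carriers Slc1a4 and Slc1a5 rose by 2.20 ± 0.043 and 2.11 ± 0.043. The glutamine and alanine carrier Slc38a2 reached 1635 ± 31.7 CPM from 709.8 ± 32.9 CPM. Among the 4 that fell was the taurine transporter Slc6a6, at 348 ± 19.8 CPM in M2 CM against 227 ± 9.85 CPM in TAM CM. Slc7a3 and Slc43a1 did not pass.

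Enzymes of serine, asparagine, proline and one-carbon metabolism rose in 17 of 20 tested cases, 12 of them at least 2-fold, and 1 fell (median 1.59). Cth, which makes cysteine from cystathionine, was at 10.4, 10.5 and 10.8 CPM in M2 CM and 408, 397 and 393 CPM in TAM CM, 37.8-fold higher. Along the serine route, Phgdh rose by 1.501 ± 0.03, Psat1 by 0.82 ± 0.031 and Psph, the last step, by 3.06 ± 0.066. Shmt2 and Mthfd2, which pass serine carbon into mitochondrial folate, rose by 1.04 ± 0.031 and 2.23 ± 0.041, and Aldh1l2, the mitochondrial enzyme that yields NADPH from formyl folate, rose from 54.6 ± 1.09 to 1291 ± 17.0 CPM. Of the cytosolic enzymes of the same folate cycle, Mthfd1 fell (-0.58 ± 0.034) and Shmt1 rose by 0.47 ± 0.044. Asns, asparagine synthetase, was at 117, 122 and 122 CPM in M2 CM and 536, 509 and 525 CPM in TAM CM. In the proline route Aldh18a1 rose by 1.72 ± 0.036 and Pycr1 by 4.48 ± 0.12. The transaminases Gpt2, Got1 and Bcat1 rose by 3.56 ± 0.057, 1.80 ± 0.046 and 1.67 ± 0.036.

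Cytosolic aminoacyl-tRNA synthetases, which load amino acids on tRNA, rose in 14 of 20 cases and fell in 4 (median 0.91). Wars, Nars, Sars and Gars, for tryptophan, asparagine, serine and glycine, rose by 1.62, 1.59, 1.496 and 1.36 on the log2 scale with SEs of 0.041, 0.035, 0.035 and 0.032. Qars, for glutamine, fell by 0.90 ± 0.037, Vars by 0.48 ± 0.031, Hars by 0.31 ± 0.036 and Kars by 0.18 ± 0.032. Mars and Farsa did not pass.

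**Figure D3:**
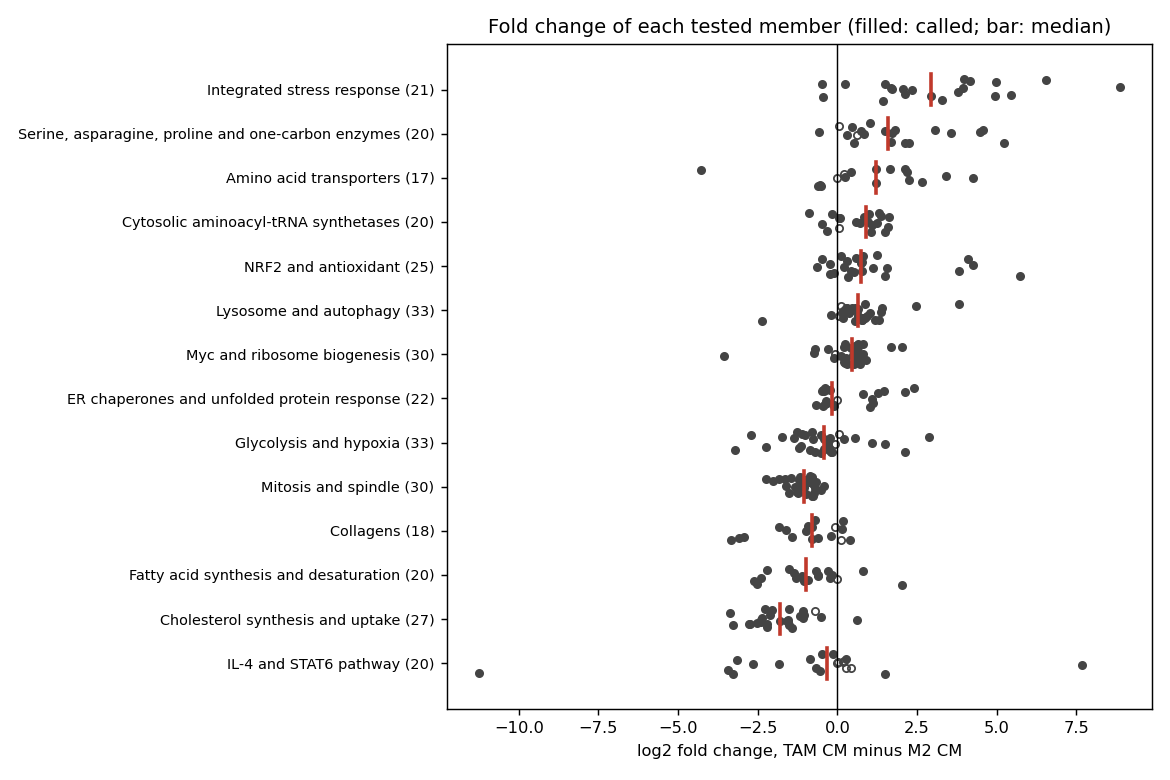
Log2 fold change of TAM CM against M2 CM (x axis) for every tested member of 14 lists, with filled points for members that passed the threshold, open points for those that did not and a red bar at the median of the list. Stress response members reach 8.88 (Fgf21), all 30 mitosis genes lie below 0, and the IL-4 list reaches -11.24 (Il24).

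The NRF2 and antioxidant list rose in 20 of 25 tested cases and fell in 5 (median 0.74). Hmox1, which degrades haem, was at 115, 101 and 109.8 CPM in M2 CM and at 2038, 1642 and 1929 CPM in TAM CM (17.2-fold, adjusted p = 5.95e-10). The lowest TAM CM value was far above the highest in M2 CM. Glutathione synthesis genes Gclc and Gclm rose by 1.55 ± 0.05 and 0.82 ± 0.044, thioredoxin reductase Txnrd1 by 0.77 ± 0.031, and peroxiredoxin Prdx6 by 1.501 ± 0.039. Nqo1, a quinone reductase often read as the classic NRF2 target, rose by 0.44 ± 0.11 and Nfe2l2, which encodes NRF2, by 0.11 ± 0.035, both under 1.5-fold. The call of Nfe2l2 was lost without the third TAM CM library (0.083, adjusted p = 0.0602) and with unscaled library sizes (0.071, adjusted p = 0.0647). Keap1, the adaptor that marks NRF2 for degradation, fell (-0.64 ± 0.054). In iron handling, 11 of 14 tested genes rose and 2 fell (median 0.35), among them ferritin heavy chain Fth1, from 2085 ± 54.7 to 4108 ± 143 CPM, and the transferrin receptor Tfrc (1.14 ± 0.034). Lcn2, which binds iron-carrying siderophores, went from 0.549 ± 0.214 to 18.2 ± 2.51 CPM. The 2 that fell, Ireb2 and Aco1, encode the iron regulatory proteins. Of 12 metallothioneins and zinc transporters, 5 rose and 5 fell (41.7% each, beside 34.3% and 34.1% of all genes tested). Mt1 was at 118 ± 4.22 and 267 ± 11.0 CPM and the zinc carrier Slc39a13 at 135 ± 3.72 and 48.6 ± 1.96 CPM.

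Lysosome and autophagy genes rose in 29 of 33 tested cases and fell in 2 (median 0.64). Sqstm1, the autophagy receptor p62, was at 367, 352 and 365 CPM in M2 CM and at 5330.4, 4759.9 and 5105 CPM in TAM CM, 14.0-fold higher. The lysosomal proteases Ctsl and Ctsb rose by 1.38 ± 0.031 and 1.17 ± 0.032, the membrane proteins Lamp1 and Lamp2 by 0.78 ± 0.03 and 0.77 ± 0.034, and the acid glucosidase Gaa by 1.39 ± 0.042. Of the factors that drive these genes, Tfe3 rose (0.62 ± 0.049) and so did Mitf, at 6.37 ± 0.994 CPM in M2 CM and 11.7 ± 0.863 CPM in TAM CM. Tfeb went the other way, from 18.3, 17.0 and 19.4 CPM to 3.66, 3.48 and 3.56 CPM (-2.35 ± 0.11). Mitf and Gpnmb, a glycoprotein of lysosomes that rose from 31.6 ± 2.19 to 174 ± 4.16 CPM, are also melanocyte and macrophage genes. Summed melanocyte markers were at 6.57 ± 0.907 CPM in M2 CM and 11.8 ± 0.912 CPM in TAM CM, with Mitf making up most of both sums and Tyr, Tyrp1 and Mlana each below 0.5 CPM. Summed macrophage markers, 16 genes, were at 30.0 ± 1.53 and 49.4 ± 5.11 CPM, of which Cd14 made up 15.9 and 40.9 CPM. Itgam, C1qa, C1qb, C1qc and Marco were at 0 in all 6 libraries, Adgre1, Csf1r and Ptprc were under 0.5 CPM, Cd68, Mertk and Mrc1 fell, and Lyz2 and Aif1 rose, to 1.31 ± 0.368 and 0.649 ± 0.0787 CPM. Their part in the lysosome changes was not tested.

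Genes for endoplasmic reticulum (ER) chaperones and the unfolded protein response divided, 8 rising and 12 falling of 22 (median -0.16). These shares were 36.4% and 54.5%, beside 34.3% and 34.1% of all genes tested. Those that rose were Hspa5 (BiP), the main ER chaperone, from 1187 ± 59.5 to 2849 ± 58.8 CPM, Herpud1 (2.39 ± 0.042) and Sel1l (1.01 ± 0.036) of ER-associated degradation, Dnajb9 (2.11 ± 0.067), Hyou1 (0.82 ± 0.032), and the sensors or factors Ern1 (1.46 ± 0.033), Atf6 (1.11 ± 0.039) and Xbp1 (1.09 ± 0.043). Those that fell were mostly folding enzymes and cofactors of the same compartment, each by less than 2-fold. Sdf2l1, Manf, Pdia6, Hsp90b1 and Creld2 fell by 0.68 ± 0.059, 0.48 ± 0.052, 0.46 ± 0.031, 0.45 ± 0.03 and 0.40 ± 0.041. Ero1l, the ER oxidase, which is on the stress response list, rose from 246 ± 19.7 to 1062 ± 7.36 CPM. Cytosolic and mitochondrial heat shock genes rose in 9 and fell in 6 of 19 cases (47.4% and 31.6%, median 0.07). Only mitochondrial Hspa9 among them passed 2-fold (1.51 ± 0.031), and the heat-inducible Hspa1b fell (-0.59 ± 0.11).

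Myc, the growth factor-responsive transcription factor, was at 204, 205 and 217 CPM in M2 CM and 855, 815 and 859 CPM in TAM CM. The groups stood 4.04-fold apart (2.01 ± 0.036; adjusted p = 2.24e-39). Of the 30 tested genes of the Myc and ribosome biogenesis list, 24 rose and 5 fell, with a median of 0.47, and 2 of the rises reached 2-fold (Myc and its antagonist Mnt). Nucleolin Ncl rose by 0.81 ± 0.029 and the box C/D snoRNP proteins Nop56 and Nop58 by 0.91 ± 0.031 and 0.65 ± 0.032. Mxd3, a MAX partner known for its peak in dividing cells, fell from 39.7 ± 2.21 to 3.38 ± 0.896 CPM, and Bop1 and Fbl of the same nucleolar machinery fell by 0.70 ± 0.034 and 0.30 ± 0.038.

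Sterol genes fell almost as a block. Of 27 tested genes of cholesterol synthesis and uptake, 25 fell, 24 of them at least 2-fold, 1 rose and 1 did not pass (median -1.79). Hmgcs1, the enzyme that commits acetyl units to sterol synthesis, was at 218, 228 and 219 CPM in M2 CM and 32.1, 33.4 and 32.0 CPM in TAM CM. Idi1, which isomerises isopentenyl diphosphate, was at 117, 128 and 124 CPM and 12.8, 11.5 and 11.6 CPM. Neither gene's groups overlapped, and the log2 fold changes were -2.77 ± 0.041 and -3.36 ± 0.068. Going down the pathway, Acat2 fell by 3.27 ± 0.12, Mvk by 2.21 ± 0.071, Pmvk by 2.35 ± 0.081, Mvd by 2.39 ± 0.073, Fdps by 2.52 ± 0.16, Fdft1 by 1.53 ± 0.043, Sqle by 1.58 ± 0.037, Lss by 1.53 ± 0.047 and Cyp51 by 2.27 ± 0.052. The regulators Srebf2 and Insig1 fell by 1.54 ± 0.032 and 2.22 ± 0.05. The 1 riser was Abca1, the cholesterol exporter (1.70 ± 0.363 to 2.61 ± 0.497 CPM), a call lost without the first TAM CM library (0.46, adjusted p = 0.12) and without the third M2 CM library (0.46, adjusted p = 0.11). A sterol regulatory element, searched as TCACNCCAC on both strands after the values had been seen, was found in 1 of 19 listed promoters against 1.42% of all tested genes' promoters. It is shown for Hmgcs1 (plus strand, chr13:119690174-119690262), with the match in capitals.
Hmgcs1: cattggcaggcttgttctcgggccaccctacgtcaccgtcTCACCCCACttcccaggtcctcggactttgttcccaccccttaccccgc
Fatty acid synthesis and desaturation genes fell in 17 of 20 cases, 10 of them at least 2-fold, and rose in 2 (median -0.99). Scd2, which puts the first double bond in saturated acyl chains, was at 1210.4, 1219.6 and 1279.8 CPM in M2 CM and 207, 193 and 209 CPM in TAM CM. Fads2, Acss2 and Elovl6 fell by 2.52 ± 0.044, 2.39 ± 0.11 and 2.22 ± 0.041, Fasn, Acly and Acaca by 1.05 ± 0.033, 1.10 ± 0.035 and 0.92 ± 0.037, and Srebf1, the SREBP gene of this branch, by 1.52 ± 0.041. Plin2, which coats lipid droplets, rose instead, from 168 ± 7.31 to 688 ± 8.28 CPM.

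All 30 tested mitosis and spindle genes fell, 18 of them at least 2-fold, with a median of -1.05. Mki67, the proliferation marker, was at 764, 770.1 and 784 CPM in M2 CM and 244, 252 and 256 CPM in TAM CM. The groups were 3.08-fold apart without overlap (-1.62 ± 0.031; adjusted p = 1.10e-40). Cyclin Ccnb2 fell by 2.25 ± 0.05, the kinase Plk1 by 2.01 ± 0.047, the phosphatase Cdc25c by 1.85 ± 0.082 and the kinesin Kif20a by 1.63 ± 0.039, and the smallest fall was that of the checkpoint gene Mad2l1 (-0.41 ± 0.043). DNA replication and nucleotide supply genes fell in 21 of 33 cases and rose in 8 (median -0.29). Thymidine kinase Tk1, ligase Lig1 and helicase subunit Mcm5 fell by 1.88 ± 0.045, 1.21 ± 0.037 and 1.16 ± 0.033, whereas Ccne2 and Cdt1 rose by 0.56 ± 0.071 and 0.44 ± 0.038. Of 13 cyclins and inhibitors of the G1 phase, 4 rose and 9 fell, the risers including cyclin Ccnd2 (1.46 ± 0.035) and the p21 gene Cdkn1a (0.76 ± 0.082). Cdkn2d and Cdkn2c, which inhibit the cyclin D kinases, fell by 2.13 ± 0.10 and 1.29 ± 0.041. In bulk RNA, fewer dividing cells and less transcript in each dividing cell cannot be told apart.

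Among p53 targets, 12 of 20 rose and 6 fell (60% and 30%, median 0.18). Gadd45a, a stress-induced growth arrest gene that ATF4 also induces, was at 2.93, 3.66 and 3.56 CPM in M2 CM and 123, 139 and 129 CPM in TAM CM. Mdm2, which degrades p53, rose by 1.57 ± 0.071, and Fas, a death receptor, fell from 14.5 ± 1.30 to 2.06 ± 0.117 CPM. The list thus held members with large changes in both directions: Sesn2 and Trp53inp1 rose (2.36 ± 0.045 and 1.72 ± 0.075) and Sesn1 and Ccng1 fell (-1.47 ± 0.08 and -1.32 ± 0.043). In the BCL2 family, 5 of 12 rose and 5 fell (41.7% each, beside 34.3% and 34.1% of all genes tested). The pro-death members Bbc3, Bid and Bcl2l11 rose by 1.37 ± 0.11, 0.94 ± 0.045 and 0.56 ± 0.066, and Bmf, Bad, Bak1 and Bok, also pro-death, fell by 2.15 ± 0.23, 0.93 ± 0.076, 0.92 ± 0.051 and 0.79 ± 0.068. With library sizes left unscaled, 3 members rose.

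Glycolysis and hypoxia genes fell in 25 of 33 cases and rose in 6 (median -0.42). Adm, encoding adrenomedullin, was at 42.3, 41.6 and 45.4 CPM in M2 CM and 5.68, 3.43 and 5.04 CPM in TAM CM. Car9, the surface carbonic anhydrase used as a hypoxia marker, fell from 24.5 ± 0.878 to 3.72 ± 0.503 CPM, the phosphofructokinase Pfkm by 1.75 ± 0.044, Bnip3 by 1.37 ± 0.14 and the pyruvate dehydrogenase kinase Pdk1 by 1.20 ± 0.053. Lactate dehydrogenase Ldha was at 2144 ± 49.0 and 1070.3 ± 31.5 CPM. Vegfa, the vascular growth factor that both hypoxia and ATF4 can induce, moved against the list, from 111, 109 and 111 CPM to 487, 482 and 487 CPM (2.13 ± 0.098). Ndrg1, Hk2 and Pfkfb3 rose as well (2.88 ± 0.12, 1.48 ± 0.077 and 1.10 ± 0.078). The glucose transporter Slc2a1 did not pass (244 ± 12.3 and 250.4 ± 13.6 CPM). Of 32 nuclear genes of oxidative phosphorylation, 20 fell and 8 rose (median -0.21), and Uqcrq of complex III alone passed 2-fold, rising by 1.76 ± 0.045.

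The IL-4 and STAT6 list was lower in TAM CM for 11 of 20 tested genes, with 3 higher and 6 not passed (median -0.31). Il24, a cytokine of the IL-10 family, had 3423 counts over the M2 CM libraries and 1 over the TAM CM libraries, a ratio of 3290 with a 95% interval of 590 to 130000 from counting alone. By library it was at 52.0, 56.5 and 55.9 CPM in M2 CM and 0, 0 and 0.0509 CPM in TAM CM, where 2 libraries had no count, and at 0.0757 and 0.49 CPM on average in M0 CM and M1 CM. Il13ra2, a decoy receptor for IL-13, was at 13, 12.6 and 12.9 CPM and 0.71, 1.45 and 1.32 CPM, and Cish and Socs1, feedback inhibitors of cytokine receptors, fell by 3.29 ± 0.33 and 1.84 ± 0.10. Postn and Cdh26, a matrix protein and a cadherin known from IL-13-treated epithelium, fell from 32.0 ± 2.24 to 5.08 ± 1.21 and from 32.5 ± 0.987 to 3.68 ± 0.584 CPM. In M0 CM the mean of Postn was 9.95 CPM, and that of Cdh26 was 88.1 CPM, above its level in M2 CM. The receptor chain did not differ by the test: Il4ra was at 52.9, 53.3 and 53.7 CPM in M2 CM and 53.8, 53.4 and 53.6 CPM in TAM CM (adjusted p = 0.903). Stat6 fell by 0.53 ± 0.038 and the second receptor chain Il13ra1 by 0.85 ± 0.052. The 3 that rose were Tgm2 (40.2 ± 3.38 to 113 ± 4.10 CPM), Bcl6 (0.26 ± 0.081) and Serpinb2, which had no count in M2 CM and 75 in TAM CM (at least 26.0-fold). The libraries of Bcl6 overlapped, and its call was lost without the third M2 CM library (0.19, adjusted p = 0.0576). The letters TTC and GAA with 3 or 4 bases between them, the STAT motif, were in 4 of 17 listed promoters (23.5%) against 14.0% of all tested genes' promoters. In the 250 bases before the start they were in 3 of 17 (17.6%) against 12.2%. Of the 4 genes, Bcl6 and Serpinb2 rose, Cish fell and Batf3 did not pass (2.43 ± 0.7 and 2.76 ± 0.677 CPM).

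Other genes with large falls from M2 CM to TAM CM had no place in that list. Lipg, endothelial lipase, was at 165, 177 and 174 CPM in M2 CM and 1.31, 1.40 and 1.17 CPM in TAM CM, with means of 5.39 and 14.7 CPM in M0 CM and M1 CM. Ces1g, a carboxylesterase of a gene cluster whose copies may share reads, was at 95.7, 109 and 99.1 CPM in M2 CM and 0.546, 0.361 and 0.356 CPM in TAM CM. Tnfrsf11b, which encodes the RANKL decoy osteoprotegerin, fell from 63.9 ± 4.13 to 2.68 ± 0.263 CPM, Srpx2, a secreted protein of the sushi family, from 7.55 ± 0.456 to 0.102 ± 0.0573 CPM, and Slc6a4, the serotonin transporter, from 128 ± 6.37 to 9.53 ± 1.06 CPM. The other 9 of the 15 largest falls were Syt1, Gprin3, Gstt4, Ccl9, Tnfrsf8, Ptprf, Adra1d, C1qtnf1 and Patj, which fell by 3.88 ± 0.48 (Patj) to 5.47 ± 0.31 (Syt1) on the log2 scale. C1qtnf1, a secreted relative of adiponectin, had a mean of 25.6 CPM in M0 CM beside 28.1 CPM in M2 CM, and the adrenergic receptor gene Adra1d of 3.30 beside 2.91 CPM.

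**Figure D4:**
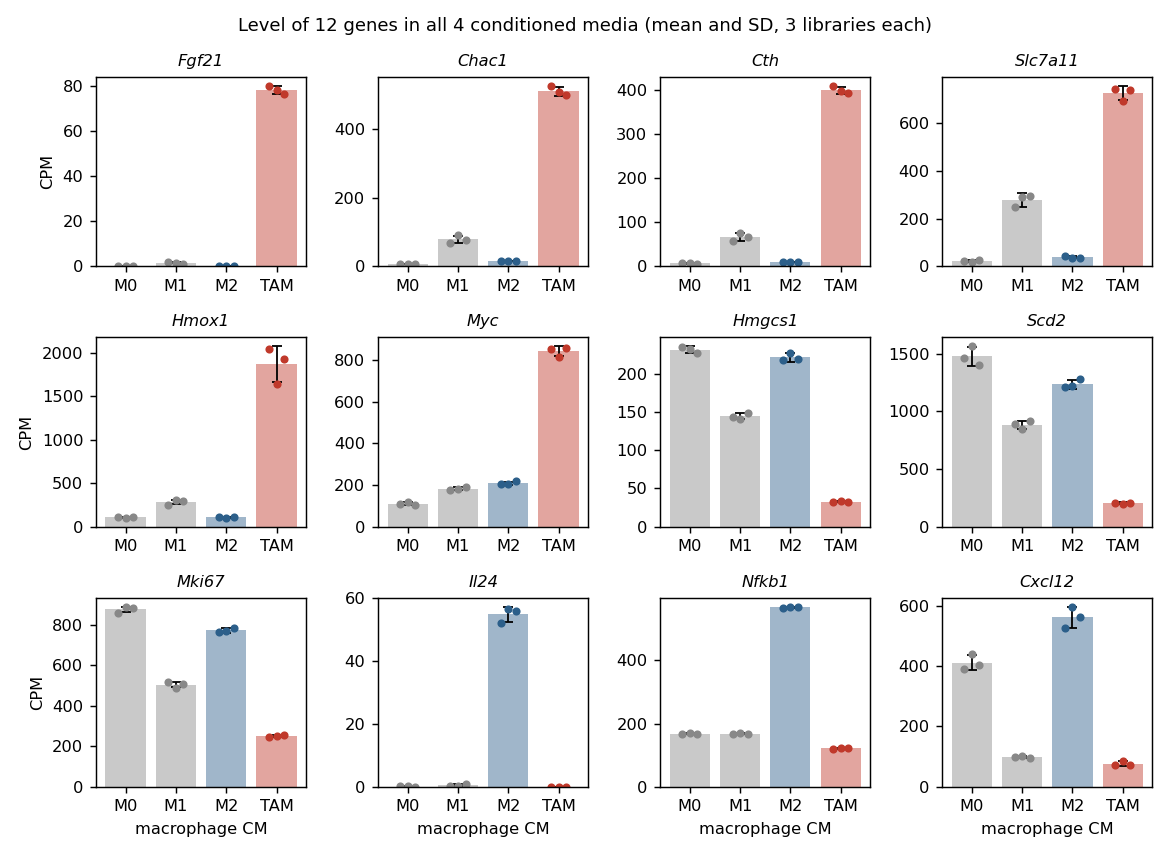
Level in CPM of 12 genes in all 4 conditioned media, as bars of the mean with SD and points for the 3 libraries of each medium, each panel with its own axis from 0. Fgf21, Chac1, Cth, Slc7a11, Hmox1 and Myc are highest in TAM CM, Hmgcs1, Scd2 and Mki67 lowest there, and Il24, Nfkb1 and Cxcl12 highest in M2 CM.

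At the other end, the 15 largest rises with at least 2 CPM in TAM CM were Sspo, U90926, Gfral, Cmah, Atp2a3, Gpr141, Als2cl, P2rx3, Fgf21, Gdap1l1, Ostn, Mamdc2, Cox6a2, Elmo1 and Car6. Sspo, which encodes a large glycoprotein known from the brain, Cmah, the enzyme that hydroxylates sialic acid, Gpr141, Gdap1l1 and Ostn had no count in M2 CM and were at least 279.5-fold, 122.8-fold, 98.5-fold, 56.5-fold and 53.1-fold higher. U90926 was at 0.139, 0.201 and 0.143 CPM in M2 CM and at 274, 285 and 260.5 CPM in TAM CM, with a mean of 10.9 CPM in M1 CM. Atp2a3, a calcium pump of the ER, had 1 count in M2 CM against 1091 in TAM CM, a ratio of 1130 with an interval of 203 to 44900. Car6, a secreted carbonic anhydrase, was at 0.604, 0.15 and 0.523 CPM and 131, 130.4 and 122 CPM, and P2rx3, an ATP-gated ion channel of sensory neurons, was at 0.0929, 0.1 and 0 CPM and 32.4, 36.4 and 33.5 CPM. Elmo1, which with DOCK proteins activates Rac, and Cox6a2, the muscle form of a cytochrome oxidase subunit, had means of 0.0626 ± 0.0543 and 0.0635 ± 0.0255 CPM in M2 CM against 23.2 ± 1.17 and 24.2 ± 2.03 CPM in TAM CM. Several of these are known from neurons or muscle, and each was near 0 in M0 CM also, at 0.0487 CPM for Sspo, 0.131 CPM for P2rx3 and 0.169 CPM for Car6.

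NF-kB subunits, inhibitors and targets fell in 13 of 25 cases and rose in 8 (median -0.25). These shares were 52% and 32%, beside 34.1% and 34.3% of all genes tested. Nfkb1, which encodes the p105 precursor of the p50 subunit, was at 566, 569 and 569.5 CPM in M2 CM and 121, 121 and 123 CPM in TAM CM, with means of 167 and 168 CPM in M0 CM and M1 CM. The subunits Rela and Relb did not pass (95.5 ± 5.92 and 95.7 ± 2.80 CPM for Rela), and Nfkb2 and Rel fell by 0.48 ± 0.032 and 0.69 ± 0.074. The inhibitors went both ways: Tnfaip3, Nfkbia and Nfkbie fell by 1.32 ± 0.08, 0.99 ± 0.039 and 0.97 ± 0.063, whereas Nfkbib rose from 34.6 ± 1.38 to 69.5 ± 3.27 CPM and Nfkbiz by 0.57 ± 0.05. Ptgs2, the inducible cyclooxygenase, rose from 61.5, 55.2 and 64.6 CPM to 541, 482 and 516 CPM, and Tnfaip2 from 29.1 ± 1.61 to 145 ± 3.39 CPM. Of 28 chemokines and cytokines, 14 rose and 8 fell (50% and 28.6%, median 0.14). Cxcl12, the ligand of CXCR4, was at 527, 597 and 563 CPM in M2 CM and 72.3, 85.0 and 72.3 CPM in TAM CM, and the monocyte attractants Ccl2 and Ccl7 fell by 1.33 ± 0.11 and 2.25 ± 0.036. Il23a, a subunit of interleukin-23, rose from 0.111 ± 0.0524 to 10.8 ± 1.96 CPM, the neutrophil attractant Cxcl5 from 31.1 ± 0.871 to 64.2 ± 5.68 CPM and Csf1, the macrophage growth factor, from 1288 ± 25.3 to 2015 ± 86.0 CPM. Cxcl10 and Ccl5 did not pass (26.2 ± 1.40 and 26.5 ± 3.37 CPM for Cxcl10).

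In Toll-like receptor signalling, 8 of 15 genes rose and 5 fell (53.3% and 33.3%, beside 34.3% and 34.1% of all genes tested). The co-receptor Cd14 was at 15.7, 14.9 and 17.1 CPM in M2 CM and 42.0, 36.7 and 44.1 CPM in TAM CM, and the receptor Tlr2 rose by 0.88 ± 0.054. The steepest of the 5 falls was -0.74 ± 0.12. Cd14 is also a macrophage marker, and the levels of the other macrophage markers are given above with the lysosome genes. The STAT3 and acute phase list rose in 7 and fell in 6 of 14 cases (50% and 42.9%, median 0.11). Saa3, an acute phase apolipoprotein, went from 0.129 ± 0.0312 to 26.6 ± 0.854 CPM and the kinase Pim1 from 3.74 ± 0.85 to 17.3 ± 0.471 CPM, whereas the receptor chain Il6st fell from 619 ± 1.49 to 255 ± 9.89 CPM. Complement showed 2 falls and no rise among 10 tested genes, and 8 did not pass. The share called was 20%, below the 68.4% of all genes tested. The falls were in C3, from 508, 498 and 495 CPM to 114, 109 and 121 CPM, and in the lectin-pathway protease Masp1, from 42.5 ± 1.78 to 5.87 ± 0.46 CPM. Without the second TAM CM library the count of falls was 4.

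Of 32 interferon-stimulated genes, 10 rose and 13 fell (median 0.01). These shares, 31.2% and 40.6%, were near the 34.3% and 34.1% of all genes tested. Isg15, a ubiquitin-like modifier, rose from 3.69 ± 0.264 to 15.3 ± 0.714 CPM and Ifi44 from 0.0648 ± 0.0308 to 2.61 ± 0.144 CPM, whereas the RNA sensor regulator Dhx58 fell by 2.07 ± 0.11 and Ifit2 by 0.91 ± 0.063. Genes of the interferon gamma response rose in 5 and fell in 8 of 21 cases (23.8% and 38.1%, median -0.20). Cd274, encoding the checkpoint ligand PD-L1, was at 0.65, 0.351 and 0.285 CPM in M2 CM and 3.82, 4.20 and 3.87 CPM in TAM CM, at a mean of 51.4 CPM in M1 CM. Guanylate-binding proteins Gbp4 and Gbp9, members of a family of near-identical copies, fell by 1.24 ± 0.049 and 1.06 ± 0.067. Other called members of that family in the list went both ways, from a fall of 0.85 ± 0.08 to a rise of 0.69 ± 0.071, and the rest did not pass. The class I transactivator Nlrc5 rose by 1.35 ± 0.055. Of 20 genes of MHC class I presentation, 7 rose and 9 fell (35% and 45%, beside 34.3% and 34.1% of all genes tested, median -0.07). The light chain B2m rose from 536 ± 6.13 to 1094 ± 9.01 CPM and the heavy chains H2-K1 and H2-D1, whose copies may share reads, by 0.59 ± 0.034 and 0.66 ± 0.052. Other heavy chains of the list went both ways, from a fall of 1.18 ± 0.05 to a rise of 1.65 ± 0.053. The peptide transporter genes Tap1 and Tap2 fell by 0.40 ± 0.062 and 0.82 ± 0.049 and the loading gene Tapbp by 0.91 ± 0.038, whereas its relative Tapbpl rose by 0.21 ± 0.084, a call lost without the third TAM CM library (0.17, adjusted p = 0.115), without the third M2 CM library (0.14, adjusted p = 0.162), with unscaled library sizes (0.17, adjusted p = 0.0639) and with the 6 libraries alone (0.21, adjusted p = 0.0527). Immunoproteasome subunits Psmb9 and Psmb10, which cut peptides, fell by 0.89 ± 0.095 and 0.49 ± 0.061, and Psmb8 did not pass (44.7 ± 3.76 and 42.6 ± 2.41 CPM). Among checkpoint ligands and immunosuppressive enzymes, 9 of 18 rose and 7 fell (50% and 38.9%). The CD155 gene Pvr rose (1.37 ± 0.057), whereas Cd47, the signal against phagocytosis, and Lgals9 fell (-1.07 ± 0.036 and -1.40 ± 0.064).

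Collagens fell in 13 of 18 cases and rose in 3 (median -0.80). Col6a1 was at 377, 364 and 369 CPM in M2 CM and 36.2, 36.3 and 37.0 CPM in TAM CM. The chains Col6a2 and Col6a3, which assemble with it, fell by 2.94 ± 0.079 and 3.08 ± 0.087, and these 3 falls were the steepest of the list. Among fibrillar collagens, Col1a2 and Col3a1 fell by 0.72 ± 0.032 and 1.41 ± 0.054 and Col1a1 by 0.19 ± 0.04. Matrix proteins, proteases and inhibitors fell in 19 and rose in 10 of 31 cases (median -0.54). The crosslinking oxidases Lox and Loxl3 fell by 2.60 ± 0.082 and 3.27 ± 0.062, and tenascin Tnc and thrombospondin Thbs1 by 2.59 ± 0.14 and 2.48 ± 0.047. Fibronectin Fn1 rose from 1852, 1845 and 1945 CPM to 4012, 4060.1 and 4196 CPM, and the protease gene Mmp19 from 0.94 ± 0.133 to 17.2 ± 1.13 CPM. Of the urokinase system, the protease Plau fell (-2.19 ± 0.068) and its receptor Plaur rose (1.41 ± 0.079). Summed fibroblast markers, which include 3 collagens and Pdgfra, were at 1510 ± 14.9 CPM in M2 CM and 1170 ± 31.7 CPM in TAM CM, with Lum, Fap and Thy1 at 0 in all 6 libraries. Of the 7 tested, 4 fell (Acta2 and the 3 collagens, among them Col1a2 from 911 ± 9.40 to 554 ± 16.5 CPM) and 3 rose: Dcn from 4.10 ± 0.403 to 16.9 ± 1.38 CPM, Pdgfra from 168 ± 3.60 to 319.7 ± 14.6 CPM and Pdgfrb by 0.79 ± 0.095.

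Keratin and junction genes fell in 8 and rose in 2 of 13 tested cases (median -0.81), and 17 of the 30 listed genes were not tested. The simple keratins Krt8 and Krt18, which pair in filaments, were far lower in TAM CM. Krt8 was at 432, 472 and 456 CPM in M2 CM and 64.5, 61.1 and 65.4 CPM in TAM CM, 7.13-fold lower. Krt18 was at 245, 283 and 262 CPM and 33.5, 27.5 and 33.0 CPM, 8.44-fold lower. Among squamous markers, whose sums are given above, Sprr1a, Dsp and Trp63 fell and Sfn rose, and their part in the keratin changes was not tested. Of the mesenchymal list, 8 rose and 8 fell of 18 (44.4% each, beside 34.3% and 34.1% of all genes tested, median 0.04). The rises numbered 5 with unscaled library sizes. Vim, vimentin, fell from 3811 ± 51.2 to 1704 ± 86.4 CPM and the actin gene Acta2 by 1.88 ± 0.098, whereas the transcription factor Snai2 and the glycoprotein Pdpn rose by 1.96 ± 0.098 and 1.251 ± 0.038. The TGF-beta and BMP list fell in 14 and rose in 7 of 25 cases (median -0.26). Its target Tgfbi was at 67.9, 70.6 and 65.7 CPM in M2 CM and 8.35, 7.95 and 9.63 CPM in TAM CM, and the BMP targets Id1, Id2 and Id3 fell by 1.46 ± 0.073, 2.05 ± 0.066 and 1.44 ± 0.046. The ligand Tgfb1 and receptor Tgfbr1 rose (0.91 ± 0.068 and 0.89 ± 0.067) while receptor Tgfbr2 fell (-0.85 ± 0.044). YAP targets and contractile genes fell in 11 and rose in 5 of 17 cases (median -0.49), led by calponin Cnn2 and the caveolar genes Cav1, Cav2 and Cavin1, which fell by 2.05 ± 0.036, 1.86 ± 0.037, 1.79 ± 0.056 and 1.55 ± 0.033.

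Immediate early genes, AP-1 factors and feedback genes of the ERK pathway rose in 22 of 33 cases and fell in 5 (median 0.73). The ERK phosphatase Dusp4 was at 4.13, 5.02 and 5.13 CPM in M2 CM and 49.0, 38.6 and 45.1 CPM in TAM CM, Fosl1, an AP-1 subunit, rose by 1.98 ± 0.047, and Etv5, an ETS factor downstream of ERK, by 1.98 ± 0.074. Dusp6, another ERK phosphatase, did not pass (71.9 ± 2.50 and 70.5 ± 2.44 CPM), nor did Fos or Jun. Growth factor ligands and receptors rose in 11 and fell in 8 of 24 cases (median 0.10). These shares were 45.8% and 33.3%, beside 34.3% and 34.1% of all genes tested. The EGF receptor ligands Areg and Ereg rose by 2.05 ± 0.13 and 1.05 ± 0.098 and neuregulin Nrg1 by 1.30 ± 0.039, while the receptors Egfr and Met fell by 0.58 ± 0.048 and 1.06 ± 0.035. Drug efflux transporters and stem cell markers rose in 9 and fell in 6 of 16 cases (56.2% and 37.5%, median 0.17). The multidrug transporters Abcb1a, Abcc4, Abcc1 and Abcb1b rose by 1.87 ± 0.084, 1.52 ± 0.059, 0.84 ± 0.034 and 0.67 ± 0.034, with the close copies Abcb1a and Abcb1b liable to share reads, whereas Abcg2 fell (-0.39 ± 0.12), though not without the second TAM CM library (-0.29, adjusted p = 0.0554), and Sox2, a stem cell factor, fell from 11.2 ± 1.36 to 7.02 ± 0.732 CPM.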

How the data were processed

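Gene counts of 12 mouse mRNA libraries were used as the authors deposited them, in 1 table of raw read counts per gene. Per the submitters' processing notes the genome build was mm10 and HISAT2 2.0 was used. The program that counted the reads is not named, nor are its annotation and strand setting given in the sources used here. Antisense, overlapping and near-identical genes are therefore uncertain. Of 55487 gene IDs, 55141 matched a symbol. Groups came from the sample titles, and no column of values was left unused.

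Genes were filtered by filterByExpr over the 4 groups, which kept 14509 and removed 0.0815% of the counts. Counts were scaled by TMM and tested with edgeR 4.0.16 (robust quasi-likelihood fit of all 12 libraries, contrast TAM CM minus M2 CM, R 4.3.3), with Benjamini-Hochberg adjustment over all 14509 genes and a threshold of 0.05. SEs were taken from the fold change and the F statistic. The labels state no design, and no replicate block was used. The common biological coefficient of variation was 3.65%. Precision is limited by 3 libraries per group, and the depth given in the report makes 3 counts over a group equal to 0.0499 CPM in TAM CM and 0.048 CPM in M2 CM, the floor used for genes without a count. Intervals of ratios with 1 to 3 counts are exact binomial (95%) and cover counting error only. On counts simulated from these libraries, the procedure recovered 42, 49, 50 and 50 of 50 genes changed by 1.25-fold, 1.5-fold, 2-fold and 4-fold. It called 12 of 14309 unchanged genes, but only 13791 genes were run, so some of the 14309 could not be called. Only 50 genes were changed at each fold, all drawn from genes above a minimum level in M2 CM, whereas 68.4% of tested genes were called in the data. How the procedure performs with changes that widespread, or how many changed genes of lower level it recovers, was not tested.

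The gene lists and the genes described were chosen with earlier results of these data known, and no list was tested as a set. Genes named are the 15 largest rises and falls (called, no overlap of libraries, a mean of 2 CPM or more in the higher medium, predicted genes left out), up to 5 called members of each list by size of change, members of families or reaction chains described as a whole, the most abundant cell type markers, other called markers where they moved in both directions, and a fixed panel of 30 genes. Some list members are not reported here by name. Promoters are RefSeq's 300-base windows of GRCm38.p6. Alternatives were DESeq2 1.42.0 (Wald test, and its size factors), unscaled library sizes, no filter, at least 1 CPM in 3 libraries, the 6 libraries alone, a replicate block, a test against a 1.5-fold change, and leaving out each library.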

Additional observations from a re-analysis of the deposited data

How the results depend on the processing

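The counts of 4974 higher and 4945 lower genes stayed within 1.5 times under every alternative but one: a test against a 1.5-fold change left 1756 higher and 1666 lower. DESeq2's Wald test gave 4803 and 4723, its size factors 5013 and 4901, unscaled library sizes 4593 and 5300, no filter 5106 and 5002, at least 1 CPM in 3 libraries 4884 and 4698, and the 6 libraries alone 4918 and 4929. Leaving out 1 library at a time gave 4794 to 4842 higher and 4713 to 4772 lower, and 1313 to 1369 and 1214 to 1249 at 2-fold or more. Of 351 called genes tracked, none reversed under the 14 alternatives, 6 lost the call under an alternative other than the 1.5-fold test and 50 under that test. Among the 78 counts of list members, 5 moved by over 1.5 times outside the 1.5-fold test: complement falls (2 to 4), cholesterol rises (1 to 0), keratin rises (2 to 1 with at least 1 CPM in 3 libraries), mesenchymal rises (8 to 5) and BCL2 family rises (5 to 3). The cause of these shifts was not tested.

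The replicate numbers are shared between media, but same-numbered libraries deviated together only weakly (correlations of 0.0287, 0.0252 and 0.057), so the numbers were not taken as pairs. Each TAM CM library correlated best with the M2 CM library of its own number. Deviations were taken from each medium's own mean, so the correlations of a library with the other medium offset each other and some partner must come out highest. With values this small, the match does not decide whether libraries were paired. With a replicate block 4992 genes were higher and 4964 lower, and 1299 and 1213 of them by at least 2-fold.

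At about 20.4 counts per CPM, genes under 1 CPM carry wide counting error, and genes that were not called are not shown to be equal.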

Other observations

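Gene families outside the lists were counted in the same fit, and were chosen after the values had been seen. Over all genes tested, 34.3% rose and 34.1% fell, and 2518 of 14509 were called at 2-fold or more. Zinc finger genes of the Zfp type leaned upward in TAM CM against M2 CM: of 335 tested, 175 rose and 52 fell, with a median log2 fold change of 0.30 beside 0.005 over all genes. Of the calls, 35 were at least 2-fold, a smaller share of the family than over all genes tested. Proteasome subunits leaned the other way, with 26 of 45 lower and 10 higher (median -0.28). Mitochondrial ribosomal protein genes fell in 37 and rose in 16 of 79 cases (median -0.09), whereas cytosolic ribosomal protein genes rose in 33 and fell in 15 of 80 (median 0.06), with 1 call of at least 2-fold in each family. COPI and COPII coat protein genes, of transport between ER and Golgi, fell in 12 and rose in 3 of 20 cases (median -0.15).

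The mitochondrial tRNA synthetases, counterparts of the cytosolic enzymes, rose in 7 and fell in 6 of 17 cases, near the shares of all genes tested. Their fold changes ran from -0.54 to 0.63 on the log2 scale (median 0.08). Of 12 tested protein-coding genes of the mitochondrial genome, 6 rose and 2 fell, none by 2-fold. Histone cluster genes, whose transcripts mostly lack poly(A) tails and are poorly caught in mRNA libraries, fell in 5 and rose in none of 12 cases, with 7 not passed. Of 340 tested long intergenic RNA genes, 93 rose and 83 fell, smaller shares than the 34.3% and 34.1% of all genes tested.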
